A study of Mus musculus with 7 samples.

Results

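The 40 genes described here belong to the ATF4 arm and the other arms of the unfolded protein response (UPR), and their RNA was measured in 7 mouse Group 3 medulloblastomas (G3 MBs). They were taken by name from a list that holds the endoplasmic reticulum (ER) stress sensors and their transcription factors, targets of ATF4, enzymes and transporters of amino acids, ER chaperones, and genes of ER-associated degradation (ERAD). All 40 symbols were found among the 34592 genes of the count table and all 40 passed the filter on low counts, so none is missing from the counts that follow. The rule used gene names and no measured value.

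When unfolded proteins build up in the ER, 3 membrane sensors respond. PERK phosphorylates the initiation factor eIF2 alpha, which slows translation in general while the mRNA of Atf4 is translated better. IRE1 alpha, the product of Ern1, splices the mRNA of Xbp1, and ATF6 is cut in the Golgi to release a transcription factor. XBP1 and ATF6 are known to switch on ER chaperones and ERAD genes, whereas ATF4, which other eIF2 kinases also induce under amino acid shortage, switches on amino acid synthesis and transport. Because ATF4 is regulated at translation, XBP1 by splicing and ATF6 by cleavage, total RNA per gene does not report the activity of these factors.

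All 7 tumors came from tumorsphere line # 19568, a single line grown from a tumor in CD1 nu/nu mice that had received cerebellar granule neuron progenitors with a Myc-IRES-GFP retrovirus (MSCV). The study's methods give these progenitors as Trp53-/-; Cdkn2c-/- and the recipients of such grafts as 6 to 8 weeks old. Before grafting into the cortex of CD1-nu/nu mice, the tumorspheres were infected with a lentivirus that carries WDR11 behind the EF1 promoter together with copGFP (4 tumors, labelled WDR11OE) or, by the protocols, with the vector lacking WDR11 (3 tumors, labelled control, whose treatment label reads "none"). The cells were not sorted, and the methods put the infected share between 40% and 80%. Tumors were taken when the mice were moribund. Replicate numbers are names only. The titles of WDR11OE replicates 1 and 2 share a number whose meaning is not stated, and each of the 2 series of library names holds a single condition, so the series and the condition cannot be told apart.

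Total counts lay between 33417175 and 41397427 in the controls and between 32116095 and 87141305 in the tumors labelled WDR11OE. A row of the table named for human WDR11, for which the sequence counted is not stated, held 73 to 102 counts in the controls and 57 to 185 in the tumors labelled WDR11OE, or 2.03 to 3.13 against 0.624 to 4.38 CPM (counts scaled to a common library size). This row did not separate the labelled groups (log2 fold change 0.05, SE 0.58, adjusted p = 0.961), so it does not show the labelled overexpression, and each direction given here compares labelled tumors. Mouse Wdr11 stood at 58.8 ± 0.463 CPM in 3 controls and 65.6 ± 3.36 CPM in 4 tumors labelled WDR11OE (mean ± SD, adjusted p = 0.0910). The adjusted p is always from edgeR's two-sided quasi-likelihood test over 17389 genes with Benjamini-Hochberg adjustment, and an adjusted p under 0.05 is a call. CPM values are scaled by TMM, and log2 fold changes compare WDR11OE with control. Trp53 was at 48.4 and 32.7 CPM on average and Cdkn2c at 16.2 and 21.7 CPM, which checks nothing since the deleted exons are not stated and host cells carry both genes. Myc stood at 914 CPM in the controls and 347 CPM in the tumors labelled WDR11OE (adjusted p = 0.00227). Of the 6 lineage markers of granule neurons, Atoh1 was at 0 counts in all 7 tumors and Barhl1 in all 3 controls. The others averaged 20.9 (Pax6), 10.1 (Zic1), 3.35 (Zic2) and 0.604 CPM (Neurod1) in the controls.

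The letters by which these factors recognize DNA are known for both arms, and the promoters of the members were searched for them. The ER stress response element (ERSE) is CCAAT and CCACG separated by 9 bases and is bound by ATF6 and XBP1 with NF-Y. The C/EBP-ATF response element (CARE), searched as TGATG, any base, AA, is bound by ATF4. RefSeq promoters on GRCm38.p6, each of 250 bases before and 50 after the gene start, were found for 36 of the 40 members, with no entry for Atf6, Manf, Hyou1 and Slc7a5. Both strands were searched. The ERSE was in 6 of the 36 members (16.7%) and in 39 of all 32851 promoters (0.119%). Members were counted per gene and all promoters per entry, so these shares, here and for the other motifs, have unlike units. The list holds known targets of these factors, so a higher share among members tests nothing. The sites are shown because the same 19-base pattern recurs in chaperones and in Syvn1. Each is written 5′ to 3′ on the strand where CCAAT comes first, which is the strand of the gene except in Creld2 and in the Hsp90b1 site nearer to the gene start, and capitals mark the fixed letters:
Creld2, chr15:88819520-88819538: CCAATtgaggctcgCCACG
Dnajc3, chr14:118937827-118937845: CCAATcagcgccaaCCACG
Hsp90b1, chr10:86705533-86705551: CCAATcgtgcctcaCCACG
Hsp90b1, chr10:86705638-86705656: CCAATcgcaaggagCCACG
Hspa5, chr2:34772025-34772043: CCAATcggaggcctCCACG
Pdia6, chr12:17266491-17266509: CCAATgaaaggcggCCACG
Syvn1, chr19:6046532-6046550: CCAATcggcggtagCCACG

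Of the chaperones, 5 of the 10 with a promoter entry held an ERSE, and the only other member with one was Syvn1. The CCACG part alone, which every ERSE contains, was in 29 of 36 members (80.6%) and in 32.8% of all promoters. The UPR element of XBP1, searched as TGACGTG, was in 2.01% of all promoters and in Hspa5 alone among the members. The CARE was in 7 members (19.4%), namely Asns, Atf3, Chac1, Herpud1, Pycr1, Slc7a11 and Trib3, and in 3.97% of all promoters. No chaperone held one. Among members with a promoter entry, the CARE was in 2 of 8 synthesis genes and 1 of 3 transporters, so most of these lacked it. It was also in 1 of 8 sensors and transcription factors, 1 of 4 ERAD genes and 2 of the 3 genes Chac1, Ppp1r15a and Trib3. Shown here are the CARE sites upstream of the gene start in the ATF4 target Chac1, in Asns and in the cystine transporter Slc7a11, which has 2 facing sites. They are written 5′ to 3′ on the strand where TGATG comes first, which is opposite to the gene in Chac1 and in the first Slc7a11 site, with the fixed letters in capitals:
Asns, chr6:7693225-7693232: TGATGaAA
Chac1, chr2:119351049-119351056: TGATGcAA
Slc7a11, chr3:50443653-50443660: TGATGcAA
Slc7a11, chr3:50443672-50443679: TGATGcAA

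The 250 bases before the start of Hspa5, on the plus strand at chr2:34771840-34772089, hold the UPR element and the ERSE, both in capitals, and those of Syvn1, on the plus strand at chr19:6046326-6046575, hold the ERSE in capitals:
Hspa5: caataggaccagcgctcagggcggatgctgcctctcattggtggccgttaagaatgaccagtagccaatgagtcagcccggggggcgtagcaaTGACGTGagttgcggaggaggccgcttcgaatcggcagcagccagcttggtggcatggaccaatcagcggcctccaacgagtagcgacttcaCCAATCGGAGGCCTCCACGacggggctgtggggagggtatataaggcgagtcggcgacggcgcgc
Syvn1: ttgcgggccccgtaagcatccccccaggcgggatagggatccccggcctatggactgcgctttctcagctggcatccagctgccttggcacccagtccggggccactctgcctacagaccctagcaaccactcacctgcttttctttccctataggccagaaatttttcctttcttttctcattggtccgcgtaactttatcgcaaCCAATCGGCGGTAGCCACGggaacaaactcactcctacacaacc

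In Chac1 the CARE stands in reverse, in capitals, within the 250 bases before its start on the plus strand at chr2:119350992-119351241:
Chac1: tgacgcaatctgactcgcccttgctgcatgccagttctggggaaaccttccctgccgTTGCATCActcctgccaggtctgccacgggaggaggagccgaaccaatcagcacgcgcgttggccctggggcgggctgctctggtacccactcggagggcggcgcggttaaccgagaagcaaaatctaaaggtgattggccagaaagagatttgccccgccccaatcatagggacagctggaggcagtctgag

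A match to these letters is a description of the sequence and not a bound site.

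Across the 40 members, 1 was higher (Ern1) and 6 were lower in the tumors labelled WDR11OE, namely Chac1, Aldh18a1, Slc7a5, Slc7a1, Slc3a2 and Syvn1, and 33 gave no call. In either direction 7 members (17.5%) were called, where 33.9% of all genes tested were. The share of members called higher was 2.5% where 18.1% of all genes tested were, and the share called lower was 15% where 15.8% of all genes were. With a 2-fold limit added, no member was higher and Chac1 alone was lower, against 3.53% and 3.95% of all genes. The groups did not overlap in 9 members (22.5%), compared with 42.7% of all genes tested. The median log2 fold change of the members was -0.08, between -1.47 and 0.59, and that of all genes was 0.08. At an unadjusted p under 0.05, 5 members were higher and 9 lower, and the share of all genes at this limit was not computed.

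**Figure D1:**
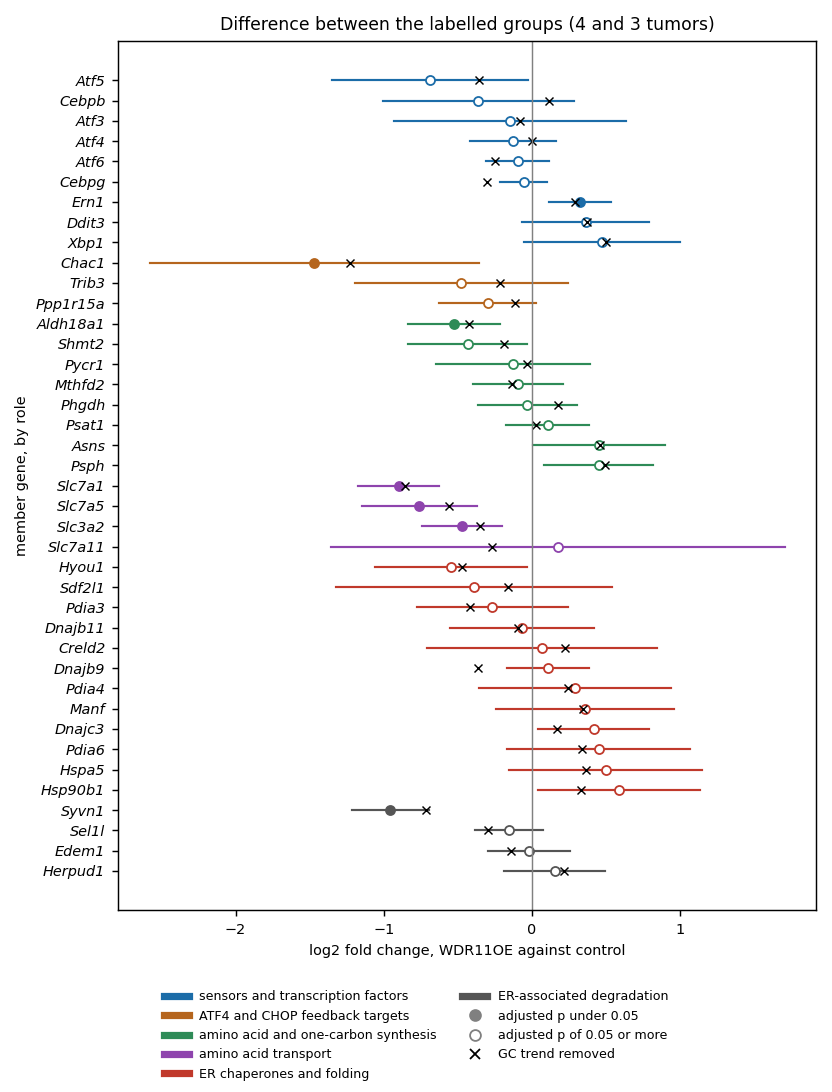
Log2 fold change of each of the 40 members, WDR11OE against control, by role on the vertical axis, with the 95% interval of edgeR's fit as a bar. Filled points have an adjusted p under 0.05 and crosses give the value with the GC trend removed; of the amino acid transporters, 3 of 4 lie left of 0 with filled points, whereas all 12 ER chaperones have open points on both sides of 0.

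Genes rich in G and C were lower in the tumors labelled WDR11OE across the genome, with a Spearman's rho of -0.353 between GC content and log2 fold change across 14919 genes that code for protein, though genes are no independent replicates. The exons of the members held between 38.3% and 67.2% G and C. With this trend removed, 1 member was higher and 3 were lower, at 10.7% and 14.2% of all genes. Ern1, Slc7a1 and Syvn1 kept their calls, and Aldh18a1, Slc7a5, Slc3a2 and Chac1 lost theirs. Their log2 fold changes stayed below 0, at -0.43, -0.56, -0.35 and -1.23, where they had been -0.53, -0.76, -0.47 and -1.47. Cebpg, a partner of ATF4 in CARE binding, gained a call, with a log2 fold change of -0.06 before and -0.30 after the correction (adjusted p = 0.0409).

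**Figure D2:**
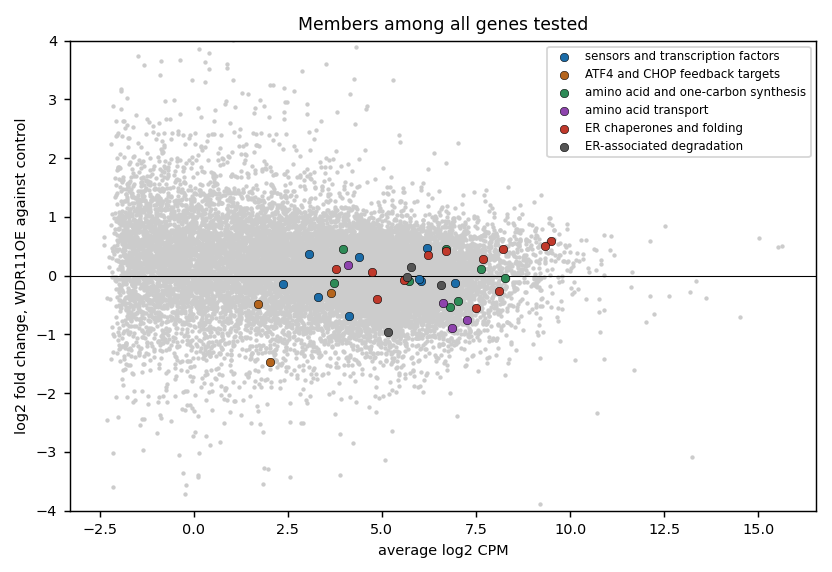
Average log2 CPM (horizontal axis) and log2 fold change, WDR11OE against control (vertical axis), of the genes tested in grey and the 40 members in the color of their role; 52 genes lie beyond the axis limit of 4. The members lie within the cloud of all genes, and Chac1 is the lowest of them at -1.47.

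Among the 9 sensors and transcription factors, 1 was called higher and none lower, and the median log2 fold change was -0.10. Ern1 (ENSMUSG00000020715, chr11:106255964-106349166, NCBIM37, minus strand) encodes the kinase and endonuclease IRE1 alpha. It was at 18.2, 19.5 and 17.7 CPM in control tumors 1, 2 and 3 and at 23.1, 21.7, 22.6 and 25.0 CPM in WDR11OE tumors 1 to 4. Every tumor labelled WDR11OE was above every control, with a log2 fold change of 0.32 (SE 0.09, adjusted p = 0.0285). The exact permutation test over the 35 splits of the tumors gave its smallest possible p of 0.0286. The call of Ern1 was lost in 6 of the 7 fits without one tumor, with adjusted p between 0.0501 and 0.115 in these, and kept without WDR11OE replicate 4. It was also lost with WDR11OE replicates 1 and 2, which share a number in their titles, summed as 1 sample (adjusted p = 0.104).

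Xbp1 (chr11:5420662-5425896, plus strand), the substrate of IRE1 alpha, was at 49.8, 77.2 and 52.2 CPM in the controls and at 98.9, 100.2, 66.9 and 65.4 CPM in the tumors labelled WDR11OE. WDR11OE tumors 1 and 2 were the highest, and control 2 stood above WDR11OE 3 and 4, so the groups overlapped (log2 fold change 0.47, SE 0.23, adjusted p = 0.153). Gene counts do not separate spliced from unspliced Xbp1 mRNA. Atf6 (chr1:172634588-172797902, minus strand), the sensor cut in the Golgi, was at 77.0, 60.3 and 68.0 CPM in the controls and at 68.3, 63.0, 62.4 and 62.5 CPM in the tumors labelled WDR11OE. The latter all fell inside the range of the controls (log2 fold change -0.10, SE 0.09, adjusted p = 0.467).

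Atf4 (chr15:80085614-80087970, plus strand) was at 150.3, 106.2 and 131.8 CPM in the controls and at 123.5, 127.9, 108.8 and 113.6 CPM in the tumors labelled WDR11OE. Again the range of the controls enclosed the others. The log2 fold change was -0.13 (95% interval -0.42 to 0.16, adjusted p = 0.473). Ddit3 (chr10:126727830-126733344, plus strand) encodes CHOP, a transcription factor induced by ATF4 and tied to cell death under prolonged ER stress. It was at 7.78, 7.77 and 5.88 CPM in the controls and at 9.59, 10.1, 7.15 and 9.89 CPM in the tumors labelled WDR11OE, where 3 of 4 tumors were above all controls (log2 fold change 0.36, SE 0.18, adjusted p = 0.175). Of the exon bases of Ddit3, 4.73% are shared with genes on the other strand, and how the counting used strand is not stated. Atf3, Atf5, Cebpb and Cebpg gave log2 fold changes of -0.15, -0.69, -0.36 and -0.06 with adjusted p of 0.775, 0.102, 0.360 and 0.559. These are transcription factors that act with or after ATF4. The largest of these differences, that of Atf5, came from 22.4 ± 8.05 CPM in the 3 controls and 13.9 ± 3.797 CPM in the 4 tumors labelled WDR11OE.

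**Figure D3:**
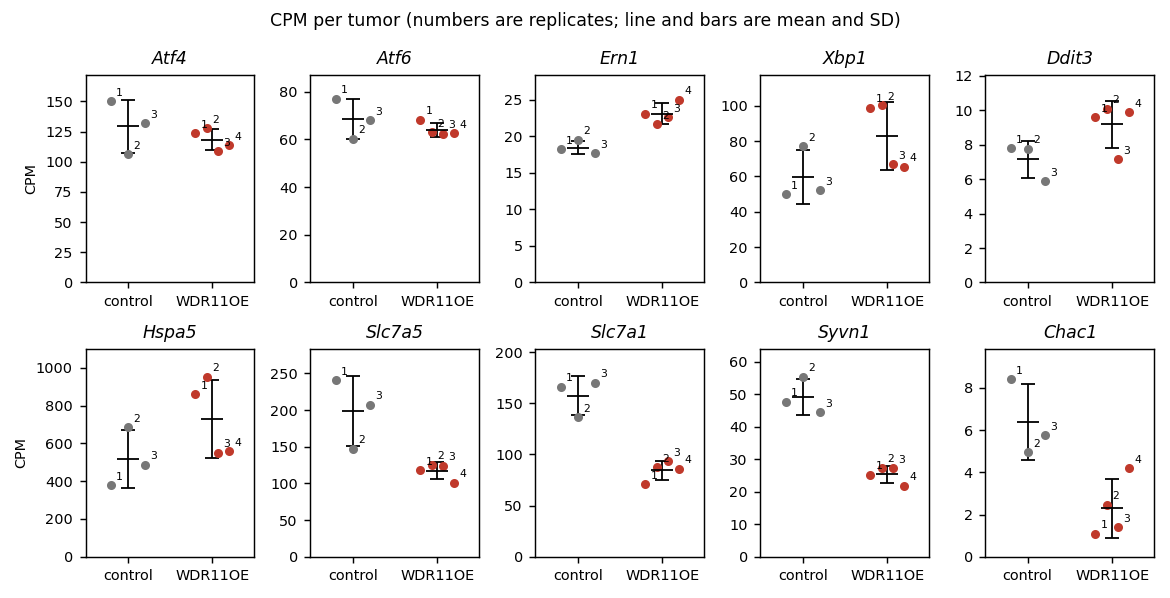
CPM of 10 members in each of the 7 tumors, with the mean and SD of each group as a line with bars and replicate numbers beside the points. The groups are apart in Ern1, Slc7a5, Slc7a1, Syvn1 and Chac1, and overlap in Atf4, Atf6, Xbp1, Ddit3 and Hspa5.

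Of the 3 genes grouped as targets of ATF4 and CHOP, 1 was called lower. Chac1 (ENSMUSG00000027313, chr2:119176965-119180117, plus strand) encodes a glutathione-degrading enzyme. It was at 8.42, 4.96 and 5.76 CPM in the controls and at 1.09, 2.47, 1.39 and 4.21 CPM in the tumors labelled WDR11OE, so all of the latter were below all controls although WDR11OE 4 lay close to control 2. The fitted level was 0.361 of the control level (log2 fold change -1.47, SE 0.47, adjusted p = 0.0487). The lowest library held 45 reads of Chac1. The exact permutation test gave p = 0.0571, and the call was lost without any one of 6 tumors (adjusted p between 0.0690 and 0.138) and kept without WDR11OE replicate 4. With WDR11OE replicates 1 and 2 summed as 1 sample it was lost as well (adjusted p = 0.0595). Ppp1r15a, which encodes the phosphatase subunit GADD34 that reverses eIF2 alpha phosphorylation, was at 13.98 ± 0.728 and 11.4 ± 1.56 CPM (adjusted p = 0.144), and Trib3, a pseudokinase that restrains ATF4, was at 3.87 ± 0.646 and 2.77 ± 0.980 CPM (adjusted p = 0.279), control first with n = 3 and n = 4.

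Of the 8 enzymes of amino acid and one-carbon synthesis, Aldh18a1 alone was called, and it was lower. Aldh18a1 makes the precursor of proline and was at 135.2 ± 24.5 CPM in the 3 controls and 93.7 ± 8.17 CPM in the 4 tumors labelled WDR11OE (log2 fold change -0.53, SE 0.13, adjusted p = 0.0200). Its groups lay close, with control 2 at 107.3 CPM and WDR11OE 2 at 105.9 CPM. The call was lost without WDR11OE replicate 1 or 3 or control replicate 1 or 3, with adjusted p up to 0.0676.

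The serine pathway did not move one way. Phgdh, its first enzyme and the most abundant of these enzymes per kilobase of exon (125.3 CPM per kilobase in the controls), gave a log2 fold change of -0.03 (95% interval -0.37 to 0.30). Psat1, the second enzyme, gave 0.10 (-0.18 to 0.39), and Psph, the last, gave 0.45 (0.08 to 0.82, adjusted p = 0.0629). Psph stood at 12.9 ± 1.86 and 17.6 ± 2.44 CPM, without overlap of the groups. Shmt2 and Mthfd2, of mitochondrial one-carbon metabolism, gave -0.43 (adjusted p = 0.0898) and -0.09 (adjusted p = 0.628). Pycr1, which completes proline synthesis, gave -0.13 (adjusted p = 0.705). Asns, the asparagine synthetase and a textbook ATF4 target, was at 85.7 ± 20.3 CPM in the controls and 117.0 ± 18.6 CPM in the tumors labelled WDR11OE (log2 fold change 0.45, SE 0.19, adjusted p = 0.111).

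Amino acid transport held 3 of the 6 lower members in a group of 4. Slc7a1 (ENSMUSG00000041313, chr5:149138986-149211480, minus strand), the transporter CAT1 of arginine and lysine, was at 166.4, 136.2 and 170.2 CPM in the controls and at 71.1, 87.4, 93.5 and 86.0 CPM in the tumors labelled WDR11OE. The highest of the latter was well below the lowest control. Its level was 0.536 of the control level (log2 fold change -0.90, SE 0.12, adjusted p = 0.00176), and the call held in each alternative fit.

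Slc7a5 (chr8:124405052-124431594, minus strand), the light chain LAT1 that carries leucine and other large neutral amino acids, was at 240.8, 147.4 and 207.6 CPM in the controls and at 118.3, 125.5, 124.4 and 100.9 CPM in the tumors labelled WDR11OE. Control 2 was the lowest of its group and still above all 4 (log2 fold change -0.76, SE 0.17, adjusted p = 0.0117). Its heavy chain Slc3a2, which also pairs with the product of Slc7a11, was at 116.2 ± 16 and 83.8 ± 8.16 CPM (log2 fold change -0.47, SE 0.12, adjusted p = 0.0183). With the GC trend removed, Slc7a5 was at -0.56 (adjusted p = 0.0527) and Slc3a2 at -0.35 (adjusted p = 0.0745). The call of Slc3a2 was also lost without WDR11OE replicate 1, control replicate 1 or control replicate 3 (adjusted p up to 0.0670), whereas that of Slc7a5 held in all 7 of these fits.

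Slc7a11, the cystine transporter xCT, varied more than any other member among the tumors labelled WDR11OE. It was at 5.02, 7.52, 19.9 and 39.4 CPM in WDR11OE 1 to 4 and at 15.1 to 17 CPM in the controls. WDR11OE 1 and 2 were thus below all controls and WDR11OE 3 and 4 above them, and the group difference was 0.17 on the log2 scale with a 95% interval of -1.36 to 1.71. Neuron markers had the same order in these 4 tumors: the summed CPM of the 8 markers was 12.5, 28.2, 209 and 684 in WDR11OE 1 to 4. In controls 1 to 3 the neuron sum was 441, 147 and 69.0 CPM. Slc7a11 was nearly level there, at 16.95, 15.76 and 15.11 CPM. Among the tumors labelled WDR11OE the astrocyte sum also had this order, at 333, 337, 514 and 757 CPM, with 407 to 512 CPM in the controls. The myeloid sum, at 69.3, 59.9, 101 and 163 CPM, and the granule lineage sum, at 26.0, 24.2, 32.2 and 57.8 CPM, also set WDR11OE 1 and 2 below 3 and 4. Single markers of these 3 lists differed. In WDR11OE 1 to 4, Gfap was at 22.5, 23.6, 122 and 252.2 CPM, whereas Gja1 was nearly flat at 112.2, 122.4, 124.6 and 124.3 CPM. S100b (86.3, 82.9, 83.1 and 92.1 CPM), Cd68 (9.54, 8.93, 9.71 and 8.5 CPM) and Pax6 (19.1, 18.2, 17.2 and 31.15 CPM) did not set WDR11OE 1 and 2 below 3 and 4. The part of these cells in the value of Slc7a11 was not tested.

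None of the 12 ER chaperones and folding enzymes was called in either direction, and their median log2 fold change was 0.20, with 8 above 0 and 4 below. By an unadjusted p under 0.05, a limit for which no share of all genes was computed, 2 were higher and 1 lower. By DESeq2 1 of the 12 was called lower (Hyou1). Hspa5 and Hsp90b1 were the most abundant members per kilobase of exon: in the controls Hspa5 stood at 147.2 and Hsp90b1 at 137.9 CPM per kilobase, against 75.1 for Atf4 and 2.26 for Ern1.

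Hspa5 (chr2:34627490-34632051, plus strand) encodes BiP, the main ER chaperone, which also holds the sensors inactive. It was at 378.9, 685.8 and 486.6 CPM in the controls and at 860.7, 952.4, 549.9 and 557.1 CPM in the tumors labelled WDR11OE. WDR11OE 1 and 2 were the highest, control 2 stood above WDR11OE 3 and 4, and the groups overlapped (log2 fold change 0.50, 95% interval -0.15 to 1.15, adjusted p = 0.215). Hsp90b1, the ER form of HSP90, was at 556.2 ± 157.4 and 834.4 ± 168.4 CPM, the difference farthest above 0 among the members (log2 fold change 0.59, SE 0.23, adjusted p = 0.0944). Of its exon bases, 15.7% are shared with other genes.

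The remaining chaperones lay on both sides of 0. Of the disulfide isomerases, Pdia3, Pdia4 and Pdia6 gave log2 fold changes of -0.27, 0.29 and 0.45, and of the DnaJ cochaperones, Dnajb9, Dnajb11 and Dnajc3 gave 0.11, -0.07 and 0.42. Their adjusted p lay between 0.0858 (Dnajc3) and 0.834 (Dnajb11). Hyou1, a large chaperone that serves BiP as an exchange factor, was at 219.3 ± 58.4 and 150.2 ± 32.2 CPM (log2 fold change -0.55, adjusted p = 0.0966). The small ER stress proteins Sdf2l1, Creld2 and Manf gave -0.39, 0.06 and 0.36, with adjusted p of 0.498, 0.906 and 0.334.

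What these 12 genes shared was their order among the tumors. In 12 of 12, control 2 was the highest of the controls, and control 1 was the lowest in 11. In 12 of 12, WDR11OE 1 and 2 were both above WDR11OE 3 and 4. This was so in 24 of all 40 members, these 12 included, and the reverse in 1 (Slc7a11). It held in 3 of 4 ERAD genes, 5 of 9 sensors and transcription factors, 3 of 8 synthesis genes and 1 of 4 transporters. Of the 3 genes grouped as targets of ATF4 and CHOP it held in 0. Of the 14 folding genes beyond the members, Calr, Canx, P4hb, Ero1l, Dnajc10, Sil1, Fkbp11, Serp1 and Ppib had this order. Dnajc10 had it narrowly, with WDR11OE 1 at 148.3 and WDR11OE 3 at 148.2 CPM. Pdia5, Ero1lb, Txndc5, Txndc11 and Fkbp2 did not have it. The share of all genes with these orders was not computed. WDR11OE 2 was the highest of all 7 tumors in 7 of the 12. As the median over the 12 genes of log2 CPM minus the gene's own mean, the tumors stood at -0.50, 0.21 and -0.10 for control 1 to 3 and at 0.33, 0.52, -0.23 and -0.20 for WDR11OE 1 to 4. The median within-group SD on the log2 scale was 0.373 for the chaperones, 0.257 for all members and 0.221 for all genes tested. It was 0.147 for the 8397 genes tested with an average log2 CPM above 4, a limit not set for the members.

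**Figure D4:**
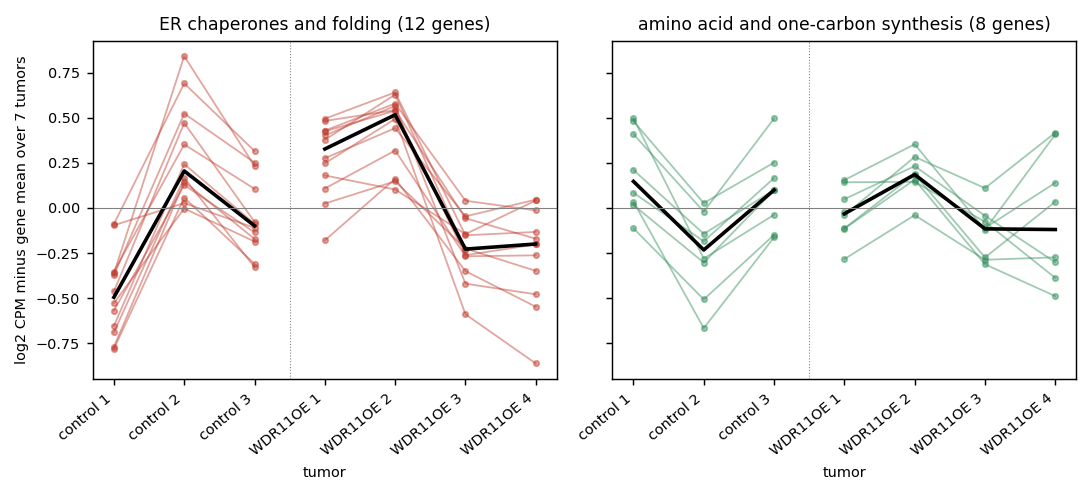
Log2 CPM minus the gene's mean over the 7 tumors (vertical axis) for 12 ER chaperones and 8 synthesis genes in each tumor (horizontal axis), with a thin line per gene and the median in black; lines join tumors for reading only, as replicates have no order. Control 2 is the highest control in 12 of 12 chaperones and the lowest in 8 of 8 synthesis genes, and WDR11OE 1 and 2 stand above 3 and 4 in the chaperones.

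In the 8 synthesis genes the order of the controls was turned round, since control 2 was the lowest control in 8 of 8. The tumors stood at 0.15, -0.23 and 0.10 for control 1 to 3 and at -0.03, 0.19, -0.12 and -0.12 for WDR11OE 1 to 4. Control 2 was also the lowest control in 3 of 4 transporters. WDR11OE 2 was the highest tumor of its label in 30 of all 40 members. For these orders, too, the share of all genes was not computed. Since WDR11OE 1 and 2 share a number in their titles, the fit was also made without both. The median log2 fold change of the members was then -0.29, with 6 lower and none higher, and Hspa5 went from 0.50 to -0.01. Of the 17426 genes tested in this fit, 2093 were lower and 1035 higher, with a median of 0.0097.

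The summed neuron, astrocyte, myeloid and granule lineage markers separated WDR11OE 1 and 2 from WDR11OE 3 and 4 as well, each with lower sums in the 2 tumors where the chaperones were higher. The choroid plexus sum did so at very low levels (0.45, 0.162, 1.42 and 0.701 CPM in WDR11OE 1 to 4). The oligodendrocyte sum (175, 114, 122 and 296 CPM) and the muscle sum (85.9, 47.5, 128 and 43.9 CPM) did not. Nor did the endothelial sum (75.1, 66.6, 67.6 and 68.2 CPM) or the fibroblast and B and plasma cell sums. Among the controls the neuron sum was 441, 147 and 69.0 CPM in tumors 1, 2 and 3, so the order of the chaperones was not the reverse of it throughout. The astrocyte, myeloid and granule lineage sums were highest in control 2 among the controls (512, 147 and 37.9 CPM), where the chaperones were highest too. The part of these cells in the chaperone levels was not tested. In bulk RNA, fewer cells of a type and less RNA per cell cannot be told apart.

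**Figure D5:**
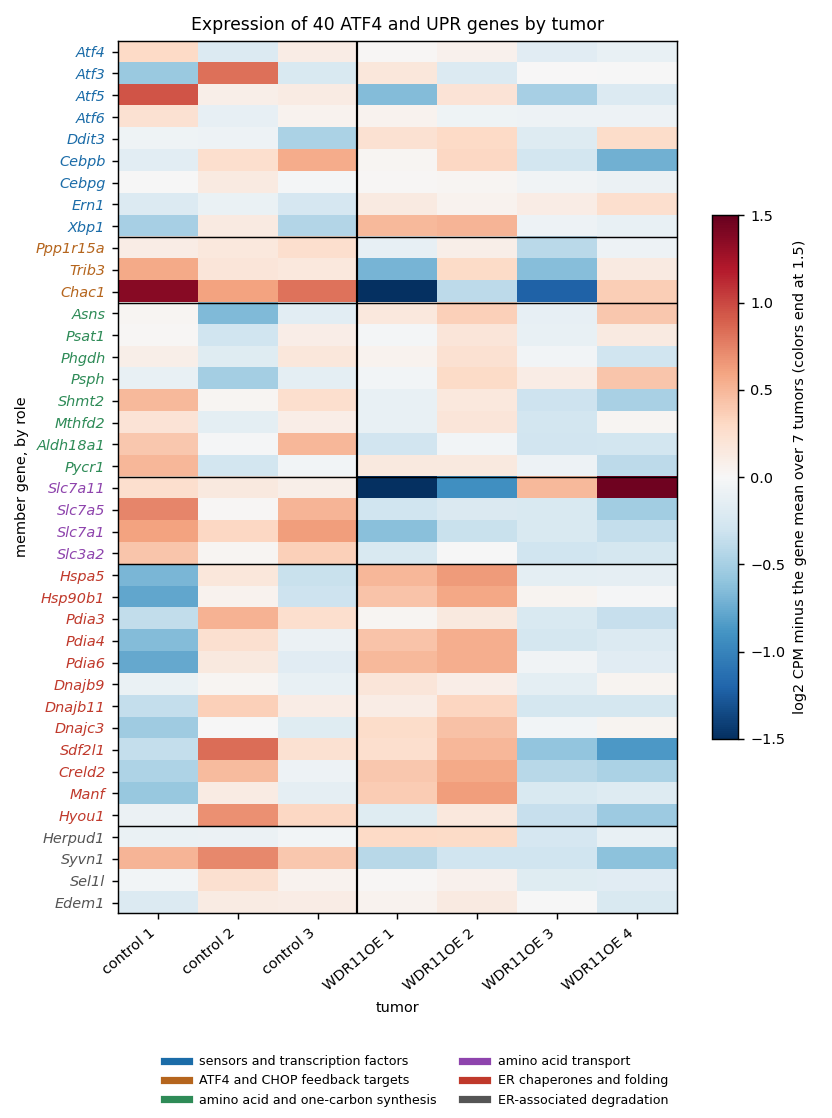
Log2 CPM of each of the 40 members (rows, by role) in each of the 7 tumors (columns), as the difference from the gene's mean; red is above and blue below, and colors end at 1.5. Most ER chaperones are red in control 2, WDR11OE 1 and WDR11OE 2, with Hyou1 blue in WDR11OE 1 (-0.18) and Dnajc3 near 0 in control 2, and Slc7a1 and Syvn1 are red in all controls and blue in all tumors labelled WDR11OE.

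Of the 4 ERAD genes, Syvn1 was lower and the other three gave no call. Syvn1 (ENSMUSG00000024807, chr19:6046576-6053712, plus strand) encodes HRD1, the ubiquitin ligase at the core of ERAD. It was at 47.7, 55.5 and 44.5 CPM in the controls and at 25.2, 27.4, 27.2 and 21.9 CPM in the tumors labelled WDR11OE. The groups were far apart relative to the spread in either, with the second at 0.516 of the control level (log2 fold change -0.96, SE 0.11, adjusted p = 0.00134). This was the smallest adjusted p among the members, and the call held in each alternative fit, with -0.71 (adjusted p = 0.00439) once the GC trend was removed. Sel1l, the partner of HRD1 in the same complex, stood at 100.9 ± 10.3 and 90.7 ± 7.81 CPM (log2 fold change -0.15, adjusted p = 0.269). Herpud1, a scaffold of that complex, gave 0.15 (adjusted p = 0.464), and Edem1, which marks misfolded glycoproteins for removal, gave -0.02 (adjusted p = 0.911). Although Syvn1 holds the same ERSE pattern as Hspa5 and Hsp90b1, its values did not follow their order: control 2 was the highest control, but WDR11OE 3 was at the level of WDR11OE 2.

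Beyond the members, 57 further genes of these pathways were tested, and 5 were higher and 12 lower, none of them by 2-fold with a call. Their shares were 8.77% and 21.1%, where 18.1% and 15.8% of all genes tested were called, and their median log2 fold change was -0.14. The genes named here were chosen after their values were seen. Among 9 genes around eIF2 and the sensors, 5 were lower (Eif2ak1 and Eif2ak4, the heme and amino acid sensing kinases, the phosphatase subunit Ppp1r15b, Atf6b, and Mbtps1, the protease that cuts ATF6), with log2 fold changes between -0.76 (Atf6b) and -0.25 (Eif2ak4). With the GC trend removed Atf6b was at -0.42 and lost its call (adjusted p = 0.0552), and the other four kept theirs. In the same set Eif2s1, which encodes eIF2 alpha itself, was higher, at 144.6 ± 19.5 CPM in the controls and 257.2 ± 19.8 CPM in the tumors labelled WDR11OE (log2 fold change 0.83, SE 0.11, adjusted p = 0.00193), and with the GC trend removed it was at 0.46 (adjusted p = 0.0561). Eif2ak3, the gene of PERK, gave -0.09 (adjusted p = 0.449).

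Of 20 further ATF4 targets, 3 were lower and none higher. Sesn2, a stress-induced inhibitor of mTORC1, was at 16.5 ± 1.60 and 9.28 ± 0.615 CPM (log2 fold change -0.83, SE 0.12, adjusted p = 0.00250), and the other 2 were Gpt2 and Slc38a2, at -0.55 and -0.23. Further folding genes had 1 of 14 higher (Dnajc10, 0.36) and 2 lower (Pdia5 and Txndc5, -0.65 and -0.55). Further ERAD and translocon genes had 3 of 14 higher (Derl1, Derl2 and Ufd1l, at 0.57, 0.56 and 0.26) and 2 lower, among them Nploc4 at -0.58. Once the GC trend was removed, Dnajc10, Derl2, Ufd1l and Pdia5 lost their calls, at 0.09, 0.33, 0.14 and -0.54, and Sesn2 and Slc38a2 kept theirs, at -0.54 and -0.47. Derl1 kept its call at 0.54. Calls were gained by Os9 and Fkbp11, higher at 0.45 and 0.78, and by Mbtps2 and Txndc11, lower at -0.68 and -0.27.

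Markers of other cells also moved with the labels. Of 8 muscle markers, 7 were higher in the tumors labelled WDR11OE, with a summed level of 43.9 to 128 CPM against 4.41 to 6.86 CPM in the controls, where Mb was at 0. Of 5 fibroblast markers, Col3a1 and Pdgfra were lower, at 1111 ± 83.7 against 2971 ± 273.3 CPM and 119.4 ± 13.7 against 184.1 ± 37 CPM. Their sum of 1310 to 1660 against 3340 to 4030 CPM is mostly Col3a1. Dcn and Lum gave log2 fold changes of 1.05 and 0.46 without a call, and Col1a1 stood at 1071 CPM in control 1 against 202 to 228 CPM in the other controls and 81.9 to 282.5 CPM in the tumors labelled WDR11OE. Of 5 endothelial markers 1 was lower, summed at 66.6 to 75.1 against 79.1 to 107 CPM. Of 6 astrocyte markers 1 was higher, summed at 333 to 757 against 407 to 512 CPM. No oligodendrocyte, myeloid, neuron, B and plasma cell, choroid plexus or granule lineage marker gave a call. The mitochondrial share of counts was 3.03% to 3.82% against 3.92% to 5.24% in the controls. Their part in the lower levels of Slc7a1, Slc7a5, Slc3a2, Aldh18a1, Chac1 and Syvn1 and in the higher level of Ern1 was not tested.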

How the data were processed

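The authors sequenced RNA from 7 mouse G3 MBs, mapped the reads to mouse assembly NCBIM37 (mm9 in the submitters' processing notes, which name BWA, STAR, CASAVA 1.7 and HTSeq), and deposited raw read counts per gene on a GENCODE annotation, without normalization. The methods name stranded total RNA sequencing and the labels a TruSeq RNA kit, and the strand setting of the counting is not given in the sources used here.

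Counts were analysed in R 4.3.3. Genes passing the default filterByExpr of edgeR 4.0.16 (17389) were scaled by TMM and tested with the quasi-likelihood test, with the label as the only term. SEs are the log2 fold change divided by the square root of F. The typical biological coefficient of variation was 34.6%. Single values were also compared by a two-sided exact permutation test of log2 CPM (prior count 2) over 35 splits, with a smallest p of 0.0286. The labels do not state separate cultures, so p-values measure the spread between tumors of 1 line. Alternatives were limma 3.58.1 with voom (the study's method), DESeq2 1.42.0, 3 other scalings, no filter or a minimum of 1 CPM for 3 or more tumors, a call at an adjusted p below 0.01, GC content or exon length trends removed, WDR11OE replicates 1 and 2 summed or left out, and each tumor left out. The fit was tested on simulated data.

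Coordinates, exon lengths and GC content came from GENCODE on NCBIM37 (97.1% of genes matched), and promoters from RefSeq on GRCm38.p6. Values per tumor were given for Atf4, Atf6, Ern1, Xbp1, Ddit3, Hspa5 and called members whose log2 fold change passed 0.585 either way. Slc7a11 was added after its values were seen, as were the other pathway genes named. The members, gene lists and tests were chosen with earlier results of these data known.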

Additional observations from a re-analysis of the deposited data

Results flagged for a closer look

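In 3 of the 40 members, a tumor labelled WDR11OE stood far from the other 3 of its label. The gap was a large share of the whole range of the group. Gap and range were taken on log2 CPM, while the values printed are CPM. In Atf6, WDR11OE 1 was at 68.3 CPM with its nearest neighbor at 63.0 CPM, a gap of 0.897 of the range. In Ddit3, WDR11OE 3 was at 7.15 CPM with its nearest neighbor at 9.59 CPM, a gap of 0.855 of the range. In Aldh18a1, WDR11OE 2 was at 105.9 CPM with its nearest neighbor at 90.1 CPM, a gap of 0.945 of the range. Each gap is past the 95% critical value of Dixon's test for 4 samples, which chance alone passes in about 1 of 20 groups. With 40 members examined, a few such gaps can arise by chance alone, so these 3 are not shown to be real outliers. The share of all genes with such a gap was not computed. The 3 controls are too few for this test.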

How the results depend on the processing

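The calls of Slc7a1 and Syvn1 held under each of the 19 alternatives. The count of higher members (1) was 2 with DESeq2 and with upper quartile scaling, and 0 with library size scaling, with no filter, at an adjusted p under 0.01, and with WDR11OE replicates 1 and 2 summed or left out. Leaving out both was chosen after seeing the data. The count of lower members (6) was 2 at an adjusted p under 0.01 and 3 with the GC trend removed. Of all 17389 genes, 1552 were lower and 1549 higher at an adjusted p under 0.01, and 2462 were lower with the GC trend removed. Higher genes were 2986 of 26417 with DESeq2 and 3541 of 17389 with upper quartile scaling. They were 3067 of 17389 with library size scaling and 2093 of 26417 with no filter. With WDR11OE replicates 1 and 2 summed they were 1629 of 17132, and with both left out 1035 of 17426. The 2-fold lower count (1) was 2 with DESeq2 and with no filter, and 0 with library size or upper quartile scaling, at an adjusted p under 0.01 and with the GC trend removed. Of the other pathway genes, 6 were lower and 3 higher at an adjusted p under 0.01, and 3 were higher with the GC trend removed, 2 with WDR11OE replicates 1 and 2 summed and 1 with both left out, where the median of the members was -0.29. Without one tumor at a time, the counts lay between 3 and 7 lower members, 0 and 1 higher, 0 and 1 lower by 2-fold, and for other pathway genes between 7 and 13 lower and 2 and 5 higher. Over all genes these fits gave 2011 to 2868 lower and 1560 to 2986 higher. The share of all genes past 2-fold was not computed for the alternatives. The cause of these changes was not tested.

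Some members without a call changed sign. With the GC trend removed, Cebpb was at 0.11, Phgdh at 0.17, Slc7a11 at -0.27 and Dnajb9 at -0.36. With an exon length trend removed, Atf6 was at 0.033, Cebpg at 0.0019, Dnajb9 at -0.033, Creld2 at -0.12 and Edem1 at 0.066. With upper quartile scaling, Phgdh was at 0.0025 and Edem1 at 0.012, and with limma-voom Slc7a11 was at -0.18. With WDR11OE replicates 1 and 2 summed Creld2 was at -0.11, and with both left out Psat1 was at -0.035, Hspa5 at -0.0086, Pdia4 at -0.22, Dnajb9 at -0.10, Creld2 at -0.59, Manf at -0.16 and Herpud1 at -0.21. Without one tumor at a time, log2 fold changes ran from -0.41 to 0.38 for Atf3, -0.0079 to 0.18 for Psat1, -0.16 to 0.054 for Phgdh, -0.28 to 0.12 for Pycr1, -0.57 to 0.40 for Slc7a11, -0.24 to 0.10 for Dnajb11, -0.17 to 0.35 for Creld2 and -0.13 to 0.046 for Edem1. Over the members and alternatives, 680 values kept their direction and side of the threshold, 36 lost and 9 gained a call, and 35 changed sign. No paired analysis was possible because the labels give no replicate numbers shared between the groups. The lowest library bounds precision for Chac1, at 45 reads, and counting error covers the sampling of reads only.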
